A study of Mus musculus with 2 samples.

Results

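The Zscan4 gene family was followed here in single cells of a mouse embryonic stem cell culture (mESC, cells able to form all tissues of the embryo). Its members were chosen by symbol, as Zscan4a to Zscan4f with the copies named Zscan4-ps2 and Zscan4-ps3, and 8 of 8 were found among the 55415 features measured. The line carried a GFP reporter driven by the promoter of MERVL (MERVL::GFP) and H2B-mIFP, a nuclear label for tracking cells, and both reporters were present in both groups. There was 1 library labelled MERVL GFP positive, with 4603 cells and 138364094 UMIs (molecule counts), and 1 labelled MERVL GFP negative, with 3832 cells and 156406894 UMIs. The labels name the line only as mESC, and give neither its clonal origin, nor the culture medium, nor how cells were separated by the reporter. The study's stated aim was to follow the fate of cells in the 2-cell-like state, and the comparison these libraries allow is of the family with and without the reporter.

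Zscan4 genes encode proteins with a SCAN domain, which lets such proteins pair, and a zinc finger part that binds DNA. In the mouse embryo they are transcribed at the 2-cell stage, when the embryonic genome is first switched on. In mESC cultures they come on in bursts in a small part of the cells, where they are known for telomere lengthening and genome stability. MERVL, an endogenous retrovirus, is active in the rarer 2-cell-like (2C-like) state, in which the transcription factor Dux drives both MERVL and Zscan4.

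The members lie in 1 cluster on chromosome 7, at chr7:10794242-11614112 of GRCm38 (mm10, GENCODE M21 annotation), a span of 820 kb. Each has 4 exons, 4 are on the plus strand and 4 on the minus strand, and 0 overlap another annotated gene. Zscan4c is at chr7:11005745-11010547 and Zscan4d at chr7:11161374-11166159. The names do not settle which copies encode a protein: GENCODE M21 lists Zscan4a as an unprocessed pseudogene and both Zscan4-ps2 and Zscan4-ps3 as protein coding. A further copy, Zscan4-ps1, lies in the same cluster and is not counted as a member here.

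Promoter sequences from the RefSeq table for GRCm38.p6 were matched for 4 of the 8 members, namely Zscan4b, Zscan4c, Zscan4d and Zscan4f. The 250 bases before the RefSeq gene start of Zscan4c (chr7:11005495-11005744, plus strand) and Zscan4d (chr7:11166149-11166398, minus strand) are shown because these were the highest of the 4 in the cells. They read 5′ to 3′ along the gene, and capitals mark matches to TATAAA and to a Dux-like motif, which reads TGATT, any 2 bases, then ATCA.
Zscan4c: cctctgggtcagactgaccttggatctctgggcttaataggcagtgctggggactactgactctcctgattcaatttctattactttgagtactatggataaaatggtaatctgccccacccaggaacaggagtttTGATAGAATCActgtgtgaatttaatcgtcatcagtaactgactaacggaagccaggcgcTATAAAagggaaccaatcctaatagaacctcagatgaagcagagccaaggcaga
Zscan4d: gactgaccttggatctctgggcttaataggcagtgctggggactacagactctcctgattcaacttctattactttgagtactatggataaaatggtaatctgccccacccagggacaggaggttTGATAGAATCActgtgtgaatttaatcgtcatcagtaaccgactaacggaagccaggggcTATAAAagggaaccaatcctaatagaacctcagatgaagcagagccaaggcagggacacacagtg

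Both strands were searched for 3 motifs in the 250 bases before the start. All 4 promoters held the Dux-like motif, each as TGATAGAATCA on the reverse complement of the motif, beginning 91 to 125 bases before the start. Over the 32851 promoters in the table, 58 held it, or 0.177%, these 4 included. All 4 also held TATAAA, beginning 31 to 65 bases before the start, as did 12.4% of all promoters. TGCACAC, reported for binding by Zscan4c itself, was in 0 of the 4 windows and in 3.67% of all. The 4 promoters were 94.7% to 99.6% identical to each other. A match describes letters in these windows and does not show binding.

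The transcripts of the members are also close to identical. Over the 28 pairs of members the longest transcripts were 96.6% to 99.8% identical (median 97.6%), with Zscan4f and Zscan4-ps2 the closest pair and Zscan4b and Zscan4d the most distant. Zscan4d was the easiest to tell apart, with 50.4% of its 50-base stretches found in no other Zscan4 gene of the cluster, and Zscan4f the hardest, with 6.29%. In the last 500 bases of the transcript the share was 0% for Zscan4b, Zscan4e and Zscan4f and 29.0% to 48.6% for the other members. How reads matching several members were assigned is not given in the sources used here. Values of single members are therefore less certain than the family sum, and a count for 1 member can hold molecules of another.

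Every member was higher in the positive library. Summed over members, the positive library held 63540 UMIs of the family, which is 459 CPM (UMIs scaled to the library's total, 95% Poisson interval 456 to 463). The negative library held 123, which is 0.786 CPM (0.654 to 0.938). The 2 levels stood at a ratio of 584 (490 to 703), and the log2 ratio of CPM + 1 was 8.01. Intervals throughout cover counting error only, because each group is 1 library and no difference between the libraries has a replicate check or a test. Batch and group cannot be told apart, since the batch label repeats the library's name. Other cell-type markers also differed between the libraries. Primitive endoderm markers were higher in the positive library for 7 of 7 that passed the filter described below. Their median log2 ratio was 1.04 beside 0.14 for all genes. Pdgfra and Cubn, 2 of the 7, passed through the positive library alone, so the count is a description only. Feeder fibroblast markers summed to 3.16 CPM in the negative library and 10.3 to 19.2 CPM across positive-library classes. Most of that is Thy1, at 9.29 CPM in the positive and 2.15 CPM in the negative library. Col3a1, Dcn, Lum and Postn had at most 6 UMIs in either library, and 0 of the 8 feeder markers passed the filter. The part of these markers in the family's difference was not tested.

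Zscan4d and Zscan4-ps2 led in both libraries. Zscan4d reached 123 CPM (121 to 125) with the reporter and, without it, 73 UMIs or 0.467 CPM. Zscan4-ps2 had 111 CPM (109 to 113) and 21 UMIs, or 0.134 CPM. Its log2 ratio of CPM + 1 was the highest of the members, at 6.62, with 6.40 for Zscan4d.

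Zscan4a and Zscan4c stood next in the positive library. Zscan4a had 84.7 CPM (83.2 to 86.3) and 3 UMIs in the negative library, a ratio of 4418 with a counting interval of 1511 to 21425. Zscan4c, the member most studied for telomere lengthening, had 83.1 CPM (81.6 to 84.6) and 13 negative-library UMIs, a ratio of 999 (584 to 1878). The positive-library intervals of Zscan4a and Zscan4c overlap. Outside the 2 negative-library cells with most family UMIs, described below, they had 2 and 4 UMIs there.

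The other 4 members were lower. Zscan4-ps3 had 26.9 CPM and 4 negative-library UMIs, and Zscan4e had 18.0 CPM and 6. Zscan4f had 7.92 CPM against 2 UMIs, a ratio of 620 (171 to 5124). Zscan4b had 5.32 CPM against 1 UMI, a ratio of 832 (149 to 32920). Those intervals show that a handful of negative-library molecules fixes the ratios of the low members.

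Genes were called by a size rule: at least 10 CPM in 1 of the 2 sets of cells, at least 50 UMIs in all and a ratio of CPM + 1 of at least 4. Zscan4b and Zscan4f were under 10 CPM, so 6 of the 8 members passed the filter. All 6 were called higher, where 241 of 8042 genes that passed, or 3.0%, were called higher and 1, or 0.0124%, lower. Their log2 ratios ranked from 13 for Zscan4-ps2 to 96 for Zscan4e among those genes. The members passed through their level in the positive library, so the count is a description only.

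Levels of different members were set side by side per length of transcript, since the sources used here do not state whether the counts depend on length. On CPM per kb of the longest transcript the order in the positive library was Zscan4d at 54.0, Zscan4-ps2 at 48.7, Zscan4a at 37.2, Zscan4c at 36.5, Zscan4-ps3 at 11.8, Zscan4e at 10.3, Zscan4f at 4.33 and Zscan4b at 2.99. The 4 high members have transcripts of 2272 to 2279 bases, so the order among them is the same with and without the length. The 3 members with the lowest levels are also the 3 with no unique 50-base stretch in their last 500 bases, and the part of that in their levels was not tested.

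**Figure D1:**
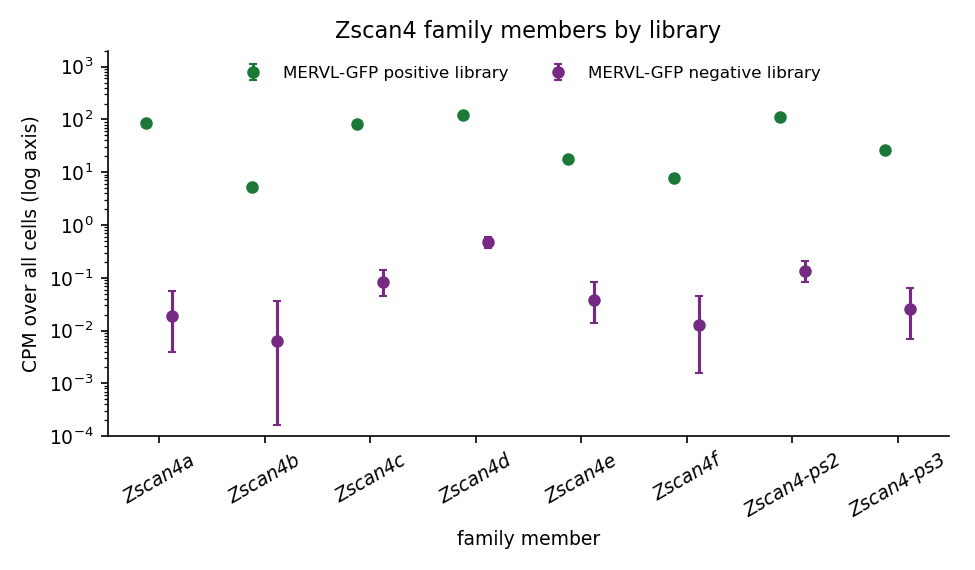
Level of each Zscan4 member in CPM over all kept cells of the MERVL-GFP positive (green) and negative (purple) library, on a log axis, with 95% Poisson intervals (counting error only). Zscan4d is highest in both, at 123 and 0.467 CPM, and every positive-library point lies above 5 CPM while every negative-library point lies below 0.5 CPM.

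Per cell, family transcripts were spread unevenly. To compare cells of different depth, each was thinned at random to 10000 UMIs, which left 4402 positive-library and 3824 negative-library cells. In the positive library 34.6% of cells had 0 family UMIs, 22.5% had 1, 18.5% had 2 to 4, 9.45% had 5 to 9, 7.06% had 10 to 19 and 7.86% had 20 or more. The median cell had 1 and the highest 189. The 346 cells with 20 or more held 61.9% of all family UMIs, and the highest 1% of cells held 18.6%.

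Of positive-library cells 65.4% held at least 1 family UMI (64.0 to 66.8, exact binomial), and of negative-library cells 0.418% did (0.239 to 0.679). Over all kept cells at full depth the shares were 89.5% and 0.887%. Cells with at least 5 thinned family UMIs are called family-high below: 1073 of 4402 positive-library cells, or 24.4% (23.1 to 25.7), and 2 of 3824 negative-library cells, or 0.0523% (0.00633 to 0.189). The threshold divides a range and not a cell type, since 107 cells lie at exactly 5 and 155 at exactly 4.

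The share of cells with a UMI can hold a background that thinning does not remove, because free RNA from broken cells can be captured together with any cell. Positive-library cells with 0 thinned UMIs of other MERVL-linked genes, a list that includes Calcoco2, were taken as a low reference. In those 139 cells a family UMI was found in 33.1% (25.4 to 41.6), at a level of 42.4 CPM and a median depth of 35280 UMIs per cell. Free RNA and low expression were not told apart, so a single family UMI in the positive library is not read as expression. Of the same 139 cells 0 were family-high, which allows a share of up to 2.16%.

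No second mode appeared among cells with a family UMI. Among positive-library cells with a family UMI before thinning, the number of cells per doubling of the cell's own family CPM was highest, at 919, between 64 and 128 CPM. It then declined without a break, through 535, 434, 378, 282, 171, 111 and 39 to 4 cells between 16384 and 32768 CPM. The 425 cells with no family UMI are not in these numbers, and the peak lies near the 42.4 CPM of the cells without MERVL-linked UMIs. Thinning to 30000 UMIs, which 2221 cells allowed, gave 14.0% of cells with 0 family UMIs, 22.4% with 1, 5.40% with 20 to 39, 2.34% with 40 to 79 and 0.675% with 80 or more. That depth leaves out most of the cells richest in the family, whose median was 19375 UMIs in cells with 20 or more thinned family UMIs, so it does not bear on a second mode among them. Above its peak the distribution was long-tailed, with no gap. Whether the cells at and below the peak form an off group cannot be read at these depths.

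Each member varied more between cells than most genes. The Fano factor (variance over mean of thinned UMIs) ran from 2.19 to 14.0 over single members, against a median of 1.06 over 14352 genes. Zscan4a ranked 32 of those genes at 14.0 and Zscan4d 40 at 13.3, while Zscan4f ranked 631 at 2.19. GFP ranked 210 at 4.56. The 4 members with the highest levels also had the 4 highest Fano factors among members.

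Depth moved with the family. Median UMIs per cell before thinning went from 33225 in cells with 0 thinned family UMIs to 19375 in cells with 20 or more. Thinning gives all cells the same number of UMIs, and the part of the original depth in the family's values beyond that was not tested.

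**Figure D2:**
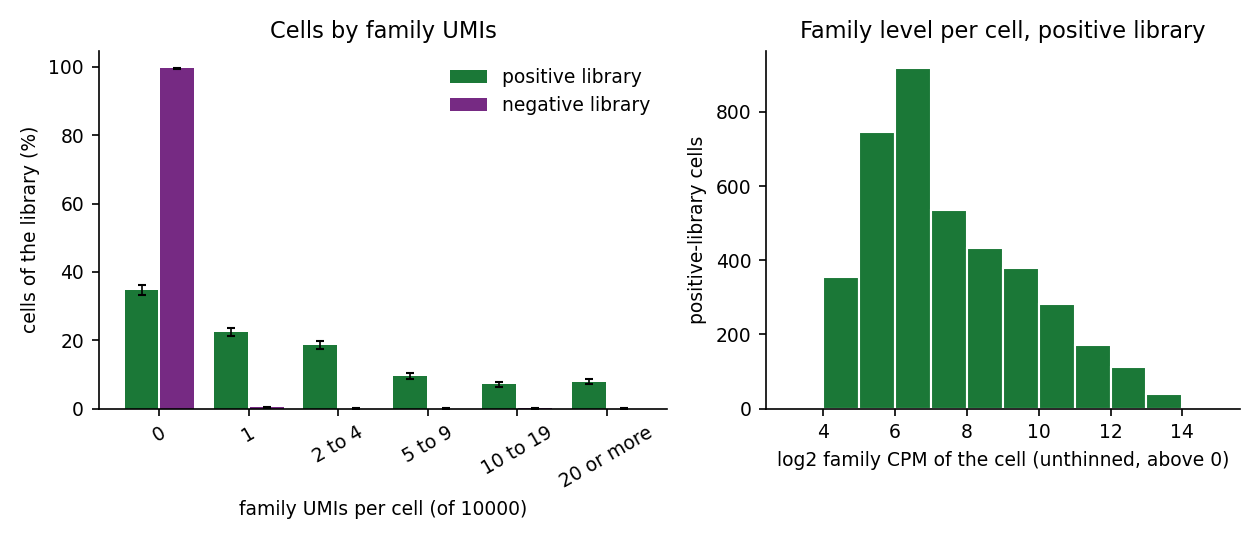
Left, percent of cells of the positive (green) and negative (purple) library by number of family UMIs among 10000 thinned UMIs, with exact binomial intervals. Right, number of positive-library cells by log2 of the cell's own family CPM, unthinned, for cells with at least 1 family UMI. The bars on the right rise to 919 cells and then fall to 4 with no second peak, and the 425 cells with no family UMI are not drawn.

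Cells with several family UMIs mostly held several members. Of 1889 positive-library cells with at least 2 thinned family UMIs, 1723 held at least 2 different members, or 91.2% (89.8 to 92.5). No member made up more than 26.7% of family UMIs, so cells with 2 or more UMIs would mostly hold several members by the mix alone, and the share is a description only. By number of members found, 1155 cells had 1, 582 had 2, 381 had 3, 271 had 4, 193 had 5, 152 had 6, 85 had 7 and 59 had all 8. In cells with 20 or more family UMIs the median was 6 members, and 57 of those 346 cells held all 8. Misassigned reads of near-identical copies would also put several members in 1 cell, and their share was not tested.

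Every pair of members was positively correlated over cells. Over the 4402 cells, which share a library and a fixed depth, Pearson's r of log(1 + thinned UMIs) ran from 0.40 for Zscan4d with Zscan4f to 0.69 for Zscan4c with Zscan4-ps2, with a median of 0.50 over 28 pairs. Zscan4c with Zscan4d, the 2 whose promoters are shown above, stood at 0.65. Sequence likeness and r did not share an order throughout: the most alike transcripts, Zscan4f and Zscan4-ps2, had r of 0.43. Zscan4f was found in only 7.61% of cells. The pair with the highest r, Zscan4c with Zscan4-ps2, was also among the most alike, at 99.3% identity.

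Most cells with a lower member also held one of the higher ones. Zscan4b was found in 4.09% of cells, and 92.2% of those cells also held Zscan4d. Zscan4e was found in 12.4% of cells, 84.2% of them with Zscan4-ps2. Of cells with Zscan4f 82.4% held Zscan4-ps2, and of cells with Zscan4-ps3 74.2% did. These are the highest shares of each lower member with a higher one. Zscan4b and Zscan4f were found in the same cell 6.06 times as often as the product of their shares, the highest of the 28 pairs, and Zscan4d and Zscan4-ps2 1.67 times, the lowest. These ratios are bounded by how common each member is, so they describe pairs and do not rank them. Against the sum of the other 7 members, r was 0.74 for Zscan4-ps2, 0.72 for Zscan4c, 0.70 for Zscan4d, 0.64 for Zscan4a, 0.60 for Zscan4e, 0.57 for Zscan4-ps3 and 0.44 for both Zscan4b and Zscan4f.

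**Figure D3:**
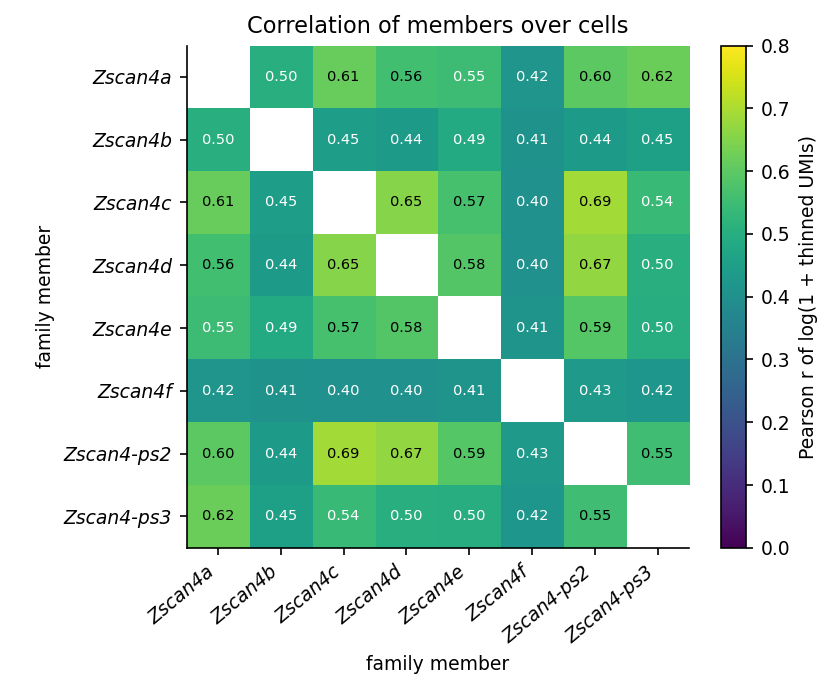
Pearson's r of log(1 + thinned UMIs) between members over 4402 positive-library cells, 28 pairs, with the value in each square and colour from 0 to 0.8. The block of Zscan4c, Zscan4d and Zscan4-ps2 holds the 3 highest values, 0.65 to 0.69, and the row of Zscan4f the lowest ones.

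The mix of members changed along the range. Zscan4-ps2 made up 30.9% of family UMIs (29.1 to 32.8) in cells with 0 thinned family UMIs, whose remaining family molecules are those that thinning dropped, and 21.7% (21.3 to 22.2) in cells with 20 or more. Zscan4a went from 16.6% to 20.7% and Zscan4b from 0.454% to 1.69%. Zscan4d stood at 22.9% in the lowest class, 29.3% in cells with 10 to 19 and 25.9% in cells with 20 or more. The low cells therefore did not hold the same mix as the highest cells.

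Single cells differed in which member led. Of 320 cells with at least 50 family UMIs before thinning, Zscan4d was the most frequent member in 121, Zscan4a in 107, Zscan4-ps2 in 60 and Zscan4c in 32. The leading member held a median of 36.4% of the cell's family UMIs and at most 96.1%, in a cell led by Zscan4d. Zscan4c and Zscan4-ps2 were absent from 0 of these cells, Zscan4d from 1, Zscan4a from 25, Zscan4f from 103 and Zscan4b from 141.

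The cell with most family UMIs illustrates the mixture. It had 412 family UMIs among 22185, of which 116 were Zscan4a, 95 Zscan4d, 81 Zscan4-ps2, 51 Zscan4c and 45 Zscan4-ps3, and it had 11 GFP UMIs. The third highest, with 329 family UMIs, was led by Zscan4d with 158 and held 35 of Zscan4a.

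The negative library held few family molecules, mostly in 2 cells. Of its 3832 cells 34 had a family UMI, and 24 of those had just 1. The 2 highest cells had 46 and 28 family UMIs, 60.2% of the 123 in the library, and 0 GFP UMIs each. Zscan4d led in both, with 23 and 19 UMIs. Without them the family stood at 0.313 CPM against 0.786 CPM with them.

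Those 2 cells were not deep, at 0.892 and 0.720 of the library's median UMIs. They had 13 and 31 UMIs of MERVL-linked genes outside the family, or 373 and 1101 CPM, where the median cell of the negative library had 41.7 CPM and the 95th percentile was 379 CPM. Only the second of the 2 cells was above that percentile. In the negative library nearly all of this sum is 1 gene, Calcoco2, at 97.3 CPM of the list's 100 CPM. The comparison therefore says little about the other genes of the list, of which the sum holds few UMIs. With Calcoco2 counted where present, 8 genes of the list were found in the first cell and 4 in the second. The mix of members also differed between the libraries: Zscan4d was 59.3% of negative-library family UMIs (50.1 to 68.1) and 26.7% of positive-library ones, and Zscan4a was 2.44% (0.506 to 6.96) against 18.4%. Without the 2 cells Zscan4d was 63.3% of 49 UMIs (48.3 to 76.6), so that difference does not rest on them. In the negative library 56 cells had a GFP UMI, and 4 of these had a family UMI as well.

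Within the positive library the family was higher in each class of cells with more GFP transcript. Family level was 176 CPM (172 to 179) in cells with 0 thinned GFP UMIs, 366 in cells with 1, 602 with 2 to 4, 955 with 5 to 9 and 1475 (1440 to 1511) with 10 or more. The share of family-high cells in those classes was 7.78%, 19.9%, 32.7%, 49.6% and 65.1%, and the share with a family UMI went from 49.6% to 92.2%. Neighbouring classes had intervals that do not overlap, for the level and for the family-high share. These intervals cover counting error only and leave out how unevenly cells hold the family, so this is a description only. Median depth before thinning went from 32481 to 22596 UMIs across the classes.

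Cells with a GFP UMI had 641 CPM of the family and cells without one 176 CPM, a ratio of 3.64 (3.57 to 3.72) and a log2 ratio of CPM + 1 of 1.86. The members moved alike, from 1.52 for Zscan4b to 1.92 for Zscan4a and Zscan4e. Zscan4d was at 172 CPM with GFP and 45.8 CPM without, and Zscan4-ps2 was at 153 and 44.8 CPM. Zscan4-ps2 was found in 47.7% (45.8 to 49.6) of cells with GFP and 23.0% (21.0 to 25.1) of cells without. Zscan4c was at 115 and 33.0 CPM, and found in 41.1% and 17.2%. Of the 7 members that passed the filter 0 were called, where 94 of 8070 genes, or 1.16%, were called higher, because their ratios stayed under 4. All 7 were above 0, with a median log2 ratio of 1.77 where the median of all genes was -0.06. Zscan4e and Zscan4f, 2 of the 7, passed the filter through the cells with GFP alone, so these counts are descriptions only. The MERVL-linked list defined below had a median of 1.99, with 8 of 17 called, and 7 of the 17, among them the called Zfp352 and Gm4340, passed through the cells with GFP alone.

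Positive-library cells without any GFP UMI at full depth still held the family. These 916 cells had 142 CPM (137 to 146), against 0.786 CPM in the negative library and 42.4 CPM in the positive-library cells without MERVL-linked UMIs. Of the 916, 49, or 5.35% (3.98 to 7.01), were family-high. Those 49 stood at 2028 CPM, so a few cells carry much of the level. In the 916 the share with a family UMI was 44.9%, above the 33.1% of the cells without MERVL-linked UMIs, at median depths of 30859 and 35280 UMIs.

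GFP and the family overlapped in part. Of 1073 family-high cells 942, or 87.8%, had a thinned GFP UMI, and 131, or 12.2%, did not. At full depth 49 of the 1073, or 4.57%, had no GFP UMI. Of 2719 cells with GFP, 34.6% were family-high and 24.9% had 0 family UMIs. GFP itself went from 109 CPM in cells with 0 family UMIs to 471 CPM in cells with 20 or more. Over the 4402 cells r was 0.43 between family and GFP and 0.70 between family and the MERVL-linked list, and 0.51 between GFP and that list. Most of the list's sum in the positive library is Eif1ad8, Eif1ad15 and Calcoco2, at 650, 564 and 379 CPM. Their own r with the family was 0.73, 0.71 and -0.07. Among other genes of the list Usp17la stood at 0.59, Tcstv3 at 0.34, Zfp352 at 0.20 and Tcstv1 at 0.13.

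**Figure D4:**
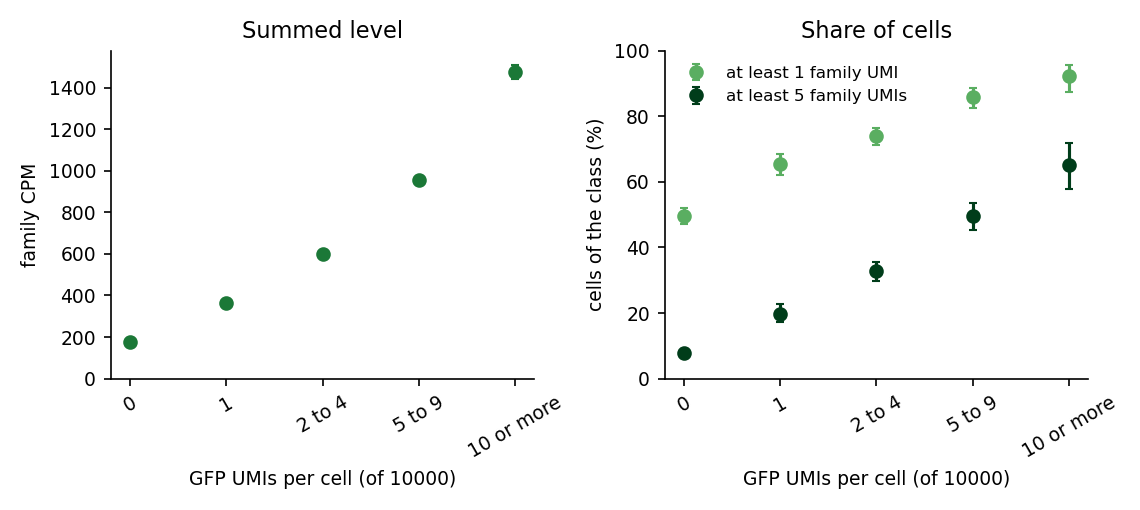
Family level in CPM (left, Poisson intervals) and percent of cells with at least 1 or at least 5 family UMIs (right, exact binomial intervals) by number of GFP UMIs among 10000 thinned UMIs, positive library. The level goes from 176 to 1475 CPM and the share with at least 5 from 7.78% to 65.1%.

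Cells with only 1 of the pair were compared with cells that had both or neither, where the family level of each set is fixed by how the set was chosen. The 131 family-high cells with 0 thinned GFP UMIs had 1658 CPM of the family and 4730 CPM of the MERVL-linked list, and held 230 GFP UMIs at full depth. The 49 with no GFP UMI at full depth had 2028 and 6124 CPM. The 414 family-high cells with at least 5 GFP UMIs had 2043 and 7874 CPM. The 98 cells with at least 5 GFP UMIs and 0 family UMIs had 60.2 and 2205 CPM, and the 848 cells with 0 of both had 40.2 and 585 CPM. Primitive endoderm markers summed to 833 CPM in those 98 cells and to 269 to 441 CPM in the other 3 sets defined on thinned UMIs, and to 116 CPM in the 49 cells without GFP at full depth. Their part in the discordance was not tested.

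The MERVL-linked and 2-cell-stage list holds 28 genes outside the family, such as Zfp352, Tcstv1, Usp17l and Eif1a-like genes, of which 24 were in the features and 17 passed the filter. By thinned UMIs of this list the family stood at 42.4 CPM in cells with 0, 64.1 with 1 to 4, 183 with 5 to 19, 607 with 20 to 49, 1374 with 50 to 99 and 3576 (3529 to 3624) with 100 or more. The share of family-high cells was 0.873%, 10.5%, 42.9%, 70.6% and 92.4% from the second class up. Even in the highest class 24 of 314 cells were not family-high. These classes follow the list's highest genes, above all Eif1ad8 and Eif1ad15, more than its lower ones.

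Between the libraries 16 of the 17 list genes were called higher, where 3.0% of all genes were, with a median log2 ratio of 4.93 beside 0.14 for all genes. Those 16 genes were at 0.761 CPM or less in the negative library, so they passed the filter through the positive library and the count is a description only. Between family-high and other positive-library cells 16 of 17 were called higher, where 181 of 8241 genes, or 2.20%, were called higher and 0 lower, with a median of 2.90 beside -0.08 for all genes. Of those 16, 7 were under 10 CPM in the other cells and passed the filter through the family-high cells alone, so this count too is a description only. Eif1ad8, an Eif1a-like translation factor gene, had 2239 CPM in family-high cells and 247 CPM in the others. Eif1ad15 had 1986 and 203 CPM, and together they make up most of the list's sum in family-high cells. Gm4340 had 120 and 5.70 CPM, and Tcstv3, a 2-cell-stage gene, 184 and 18.8 CPM. Zfp352, a zinc finger gene of the 2-cell embryo, had 42.8 and 7.30 CPM. Calcoco2, an autophagy receptor, was the exception, at 315 and 395 CPM.

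Dux itself was scarce. Duxf3, the feature for Dux, had 2.57 CPM in the positive library and 3 UMIs, or 0.0192 CPM, in the negative library, under the filter. Within the positive library it stood at 6.82 CPM in family-high cells and 1.47 CPM in the others.

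Genes reported to activate Zscan4 or the 2C programme had log2 ratios on both sides of 0. Their sum was 1943 CPM in cells with 0 family UMIs and 3584 CPM in cells with 20 or more, against 1412 CPM in the negative library. Much of that sum's difference is 1 gene, Nelfa, which was at 47.5 CPM in the negative library and is described next. Of 10 that passed, 1 was called higher in family-high cells and 0 lower, where 2.20% of all genes were called higher, 5 were above 0 and 5 below, and the median was -0.01. The called gene was Nelfa, a subunit of the elongation-pausing factor NELF, at 1393 CPM in family-high cells and 290 CPM in the others (log2 ratio 2.26). Dppa2, a chromatin protein that primes Dux, had 369 and 200 CPM (0.88), while its partner Dppa4 had 60.7 and 69.9 CPM (-0.20). Dppa3, a maternal-effect factor, had 88.0 and 42.5 CPM (1.03). Tbx3 (-0.52) and the methylcytosine dioxygenases Tet1 (-0.80) and Tet2 (-1.34) were lower. Between the libraries 2 of the 10 were called, Nelfa at 3.41 and Dppa3 at 2.50, where 3.0% of all genes were called higher. The median of the 10 was 0.34 beside 0.14 for all genes. Dppa3, at 8.23 CPM in the negative library, passed the filter through the positive library alone, so the count is a description only.

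Genes reported to repress Zscan4 or the 2C programme lay near the median of all genes. All 24 passed, 6 were above 0 and 18 below, and the median was -0.16 beside -0.08 for all genes. Of the 24, 0 were called, where 2.20% of all genes were called higher and 0% lower, so the count says nothing about the list. Trim28, the corepressor that silences retroviruses, was at 885 CPM in family-high and 737 CPM in other cells (0.26). Rif1, a telomere and replication-timing protein, was at 631 and 623 CPM, with a sign that depends on the scaling. Sumo2, the modifier of the SUMO pathway, was at 619 and 985 CPM (-0.67), and Mga, of the PRC1.6 complex, at 45.5 and 85.8 CPM (-0.90). Between the libraries the median of the 24 was 0.02 on all UMIs and -0.26 under TMM scaling, which moved the median of all genes from 0.14 to -0.14. The list lay below the median of all genes under both scalings.

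Telomere and recombination genes, the process for which the family is best known, had a median log2 ratio of -0.23 between family-high and other cells, beside -0.08 for all genes. Of 16 that passed 5 were above 0 and 11 below. None of the 16 was called, which is no result about them where 2.20% of all genes were called higher and 0% lower. The summed list went from 1322 CPM in cells with 0 family UMIs to 1022 CPM in cells with 20 or more. Tinf2, a shelterin subunit, had 20.4 CPM in family-high and 15.1 CPM in other cells (0.41). Terf1, which binds telomere repeats, had 146 and 185 CPM (-0.33), and the meiotic cohesin Smc1b 15.3 and 28.8 CPM (-0.87). RNA levels do not measure telomere length or recombination.

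The other SCAN-domain zinc finger genes summed to 159 CPM (155 to 162) in cells with 0 family UMIs and 215 CPM (204 to 226) in cells with 20 or more. Of 22 genes 7 passed the filter in the family-high comparison, 6 above 0 and 1 below, with a median of 0.45 beside -0.08 for all genes. One of the 6, Zkscan14, at 10.7 and 6.07 CPM, passed through the family-high cells alone. Of the 7, 0 were called, beside the 2.20% of all genes called higher. Zkscan1 was the highest, at 31.8 CPM in family-high and 15.3 CPM in other cells (1.01), and Zscan10, a pluripotency factor, was the one below 0, at 11.5 and 17.1 CPM (-0.53). Between the libraries 6 passed, 2 of them through the positive library alone, and 0 were called, beside 3.0% of all genes called higher, and the median was 0.30 beside 0.14 for all genes.

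Pluripotency markers had log2 ratios below 0 in family-high cells for all 12, with a median of -0.80 beside -0.08 for all genes. The size rule called 0 of the 12 lower, as it did 0% of all 8241 genes, so that count says nothing about them. Sox2 had 227 CPM in family-high and 514 CPM in other cells (-1.17), Zfp42 451 and 1020 CPM (-1.18), Klf4 169 and 347 CPM (-1.03) and Utf1 82.6 and 183 CPM (-1.14). Nanog, at 350 and 427 CPM (-0.29), and Klf2, at 365 and 475 CPM (-0.38), were nearest 0. The summed list went from 16775 CPM in cells with 0 family UMIs to 8519 CPM in cells with 20 or more, against 15091 CPM in the negative library. Most of that sum is 1 gene, Dppa5a, at 9181 CPM in family-high and 12121 CPM in other cells (-0.40), so the sum follows that gene. The markers were present in both libraries, as the mESC label has it, with Pou5f1 at 278 and 389 CPM.

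Summed markers of other cell types differed in direction along the family classes. The 10 primitive endoderm markers summed to 462 CPM in cells with 0 family UMIs and 175 CPM in cells with 20 or more, and the negative library also stood at 175 CPM. Of the endoderm markers 7 of 7 that passed were below 0 in family-high cells (median -0.46). Trophoblast markers went from 46.9 to 31.2 CPM. Of the 2 that passed, Tfap2c was lower, at 7.93 CPM in family-high and 21.1 CPM in other cells. Ascl2 was higher, at 13.2 and 11.7 CPM, so the sum mostly follows Tfap2c. The 8 feeder fibroblast markers went from 10.3 to 18.9 CPM, with Thy1 alone at 13.7 CPM in family-high and 8.20 CPM in other cells. Their part in the family's values was not tested. By primitive endoderm UMIs the family was at 409 CPM in cells with 0, 524 with 1 to 4, 567 with 5 to 9 and 222 with 10 or more, so it did not follow that list in order.

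**Figure D5:**
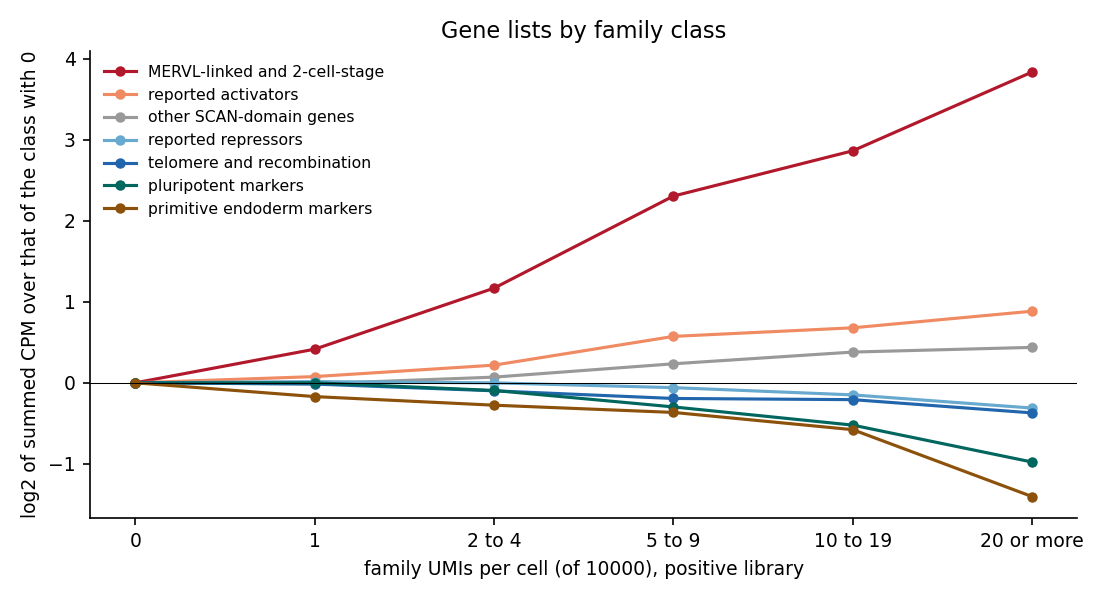
Summed CPM of each gene list in positive-library cells by number of family UMIs among 10000 thinned UMIs, as log2 of the value over that in cells with 0. The MERVL-linked list climbs from 796 to 11363 CPM and the pluripotent markers go from 16775 to 8519 CPM, while the repressors go from 8339 to 6720 CPM and the telomere list from 1322 to 1022 CPM.

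The genes most like the family were ranked by r of log(1 + thinned UMIs) with the family sum over the 4402 positive-library cells, among 17467 genes with at least 50 UMIs there. The 10 highest were Eif1ad7 at 0.74, Eif1ad8 at 0.73, Eif1ad15 and Eif1ad3 at 0.71, Gm21761 at 0.69, Eif1ad6 at 0.68, Gm20767 at 0.65, Gm16478 at 0.64, Eif1ad4 at 0.63 and Gm21818 at 0.62. The median over all genes was -0.01, the 99th percentile 0.29, and 32 genes exceeded 0.5. Of the top 10, 6 are Eif1a-like genes, another multicopy family, whose counts per copy are likewise uncertain. Eif1ad7 had 343 CPM in the positive and 0.262 CPM in the negative library. GFP stood at rank 61 with 0.43, and Zscan4-ps1, at 23.7 CPM and 4 negative-library UMIs, at rank 33 with 0.49.

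At the other end, among genes with at least 100 CPM, the lowest r was that of Sumo2, at -0.44. Hspe1, a mitochondrial chaperonin, stood at -0.43, Anp32b at -0.41, and Set, Rps27l, Hmgn1, Ptma, Dtymk, Tmsb10 and Arid5b lay between these and -0.37. All of the 10 were also lower in the positive library, for example Sumo2 at 907 and 1530 CPM, Hspe1 at 1997 and 3151 CPM and Arid5b at 122 and 277 CPM.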

How the data were processed

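For each of 2 libraries the authors deposited a sparse matrix of whole-number counts, treated here as UMIs since cell barcodes have 16 bases. Per the submitters' processing notes, FastQC 0.11.2, Trim Galore 0.6.4, STAR 2.7.6a and the mm10 build were used, with roles, annotation and cell calling not given in the sources used here. The labels' protocols describe kits of a bulk type.

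Cells with at least 1000 UMIs, 500 genes and at most 20% mitochondrial UMIs were kept, 4596 and 3832 (medians 29555 and 39100 UMIs). The libraries share 3 barcodes. No doublet caller was run, so doublets remain. Thinning to 10000 UMIs without replacement left out 194 and 8 cells. CPM is over all UMIs of a set of cells, and log2 ratios use CPM + 1. Intervals are 95% exact Poisson, binomial (Clopper-Pearson) or conditional ones, and a share of 0 has the limit of 3 counts. PCR duplicates are assumed removed by molecule counting, which the labels do not state.

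No test was run, as a group is 1 library. Named genes are the members, genes of the lists, and the 10 highest and 10 lowest by r. The members and lists were chosen with earlier results of these data known. Alternatives changed cell filter, scaling (TMM from edgeR 4.0.16, median of ratios), thinning, thresholds and pseudocount. The size rule and ranking were tested on simulated data. Loci and transcripts came from GENCODE M21, promoters from RefSeq. Python 3.11.15, numpy 2.4.6, scipy 1.17.1 and pandas 2.3.3 were used.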

Additional observations from a re-analysis of the deposited data

How the results depend on the processing

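No paired analysis was possible because a group is 1 library, so no library could be left out either. The family sum and the 8 members kept their direction under the alternatives run. Listed genes and medians near 0 did not all do so between the libraries: under TMM Dppa5a went from 0.15 to -0.14, the repressor median from 0.02 to -0.26 and the telomere median from 0.09 to -0.20. The family level in the positive library was 445 CPM with the stricter cell filter (10000 UMIs, 3000 genes, 10% mitochondrial UMIs), 469 without cells above 2 times the median UMIs, 620 when ribosomal protein and mitochondrial genes were taken out of the total, 635 as the mean of each cell's CPM and 322 without Zscan4-ps2 and Zscan4-ps3. In the negative library it was 1.10, 0.944 and 0.627 CPM under the last 3 settings and 0.313 without the 2 highest cells. The log2 ratio between libraries was 8.21, 8.35 and 7.63 under the same 3, 7.80 under both TMM and median of ratios, and 9.02 with a pseudocount of 0.1. The members ran from 2.53 to 6.46 under TMM and from 5.67 to 9.48 with that pseudocount.

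Shares follow depth and threshold by construction. The share with a family UMI was 51.3% and 0.235% at 5000 UMIs, 90.3% and 0.889% without thinning and 42.9% and 0.0785% for at least 2 UMIs. The family-high share of the positive library was 16.2%, 41.5% and, at 10 UMIs, 14.9%. Co-detection was 88.4% at 5000 UMIs, 93.3% without thinning and 84.2% without Zscan4-ps2 and Zscan4-ps3. The log2 ratio by GFP was 1.58 at 5000 UMIs, 1.90 without thinning, 1.80 without cells above 2 times the median UMIs, 2.60 for at least 5 GFP UMIs and 1.90 without cells with at least 5 primitive endoderm UMIs.

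With a ratio of at least 2 the size rule called 564 genes higher and 80 lower between libraries, 262 and 7 by GFP and 485 and 118 by family-high. Lower calls between libraries were 2 without a filter and 4 with a pseudocount of 0.1, and 1 by family-high with that pseudocount. The 30000-UMI thinning and the settings without the 2 cells, without Zscan4-ps2 and Zscan4-ps3 in co-detection and without endoderm cells were chosen after seeing the data. Ratios of Zscan4a, Zscan4b and Zscan4f rest on 3, 1 and 2 negative-library UMIs, which limits them.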

Other observations

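The cluster holds other genes, most of them at or near 0. Of 53 annotated genes in the span 50 were in the features, 41 of them not Zscan4 genes, and 19 of those had 0 UMIs in both libraries. The 41 summed to 4624 UMIs in the positive and 1522 in the negative library, where the Zscan4 genes of the span, Zscan4-ps1 included, had 66812 in the positive library. All 22 that were detected had a higher CPM in the positive library, 16 of them with fewer than 20 UMIs in all. Most of the 22 had 0 UMIs in the negative library, so they were detected through the positive library alone and the count is a description only. Gm45551, an unprocessed pseudogene at chr7:11478208-11479567, had 15.4 CPM in the positive library and 68 UMIs, or 0.435 CPM, in the negative one, and an r of 0.47 with the family sum over 4402 cells. Gm7789, a transcribed pseudogene at chr7:10988419-10996362 in the same span, had 11.4 and 9.01 CPM and an r of -0.04. These genes were chosen after their values were seen, as the 2 non-Zscan4 genes of the span above 10 CPM.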
